A study of Mus musculus with 2 samples.

Results

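Splicing factors and neuronal RNA-binding proteins, 59 genes of 21896, were examined in the cortex of control and Rcor2cko mouse embryos. Rcor2 is a co-repressor in the LSD1 histone demethylase complex. The 59 genes are those whose symbols belong to the Srsf, Hnrnp, Ptbp, Rbfox, Nova, Celf, Elavl, Mbnl, Msi, Srrm and Khdrbs families, and the rule that selects them reads the symbol alone. RNA came from the ventricular and subventricular zones (VZ–SVZ) dissected from the embryonic cortex at E13.5, in 1 control library (Rcor2fl/fl) and 1 Rcor2cko library (Rcor2fl/fl with NesCre). Both were of strain C57/BL6 and came from crosses of Rcor2fl/+NesCre mice. Both genotypes carry floxed Rcor2 alleles, and the Nestin promoter drives Cre in the neural lineage of Rcor2cko, so cells of the tissue outside that lineage, such as microglia, are not targeted. The number of embryos behind each library is not given in the sources used here. E15.5 was not analysed here.

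Splicing removes introns from a transcript, and RNA-binding proteins decide which alternative exons are kept. SR proteins (Srsf genes) bind exons and mostly favour their inclusion, hnRNPs often oppose it, and a further group of factors is enriched in neurons. In the developing cortex, Ptbp1 of the progenitors represses neuronal exons, including one in Ptbp2, and the change from Ptbp1 to Ptbp2 is a textbook step of neuronal differentiation. Srrm4 promotes the inclusion of neuronal microexons, and the Nova, Rbfox, Elavl and Celf proteins shape the neuronal transcriptome further.

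Levels were given as FPKM, a measure per length and per sequencing depth, which allows levels of different genes to be compared. The scaling total recovered from the steps between low FPKM values was 18841070 fragments for the control and 25481460 for Rcor2cko, and 3 fragments of a 2000 nt transcript correspond to 0.0882 and 0.0654 FPKM. Differences are log2 ratios of (FPKM + 0.1), Rcor2cko over control, among genes that reached 1 FPKM in either library. There was 1 library per genotype, so no difference has a replicate check, no test of the genotypes was possible and each comparison is between 2 libraries. A counting interval is a 95% Clopper-Pearson exact interval for the log2 ratio from recovered fragments, and covers counting error only. Rcor2 itself measured 90.6 FPKM in the control library and 55.7 FPKM in Rcor2cko, a log2 ratio of -0.70. This value spans the whole transcript, exons outside the floxed part included, and so does not measure the deleted exons themselves. Xist, transcribed from the inactive X chromosome of females, was at 177 FPKM in the control library and 0.109 FPKM in Rcor2cko, and Y-linked Eif2s3y was listed at 0 and at 19.8 FPKM, so that genotype and embryo sex cannot be told apart.

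Splicing factor transcripts were abundant in the VZ–SVZ and close to equal in the 2 libraries. The 58 genes that reached 1 FPKM had a median level of 65.0 FPKM in the control library and 56.9 FPKM in Rcor2cko, against 10.5 and 10.4 FPKM over all 11777 genes compared. A median level depends on the genes in the middle of the order, and the median log2 ratio of the 58 genes was -0.04. In both libraries 53 of them reached 10 FPKM and 18 reached 100 FPKM. Together the 59 symbols made up 1.75% of all FPKM in the control and 1.73% in Rcor2cko. The only gene under 1 FPKM in both libraries was Mbnl3, an X-linked muscleblind gene, with 0.582 FPKM (93 fragments) in the control library and 0.524 FPKM (113 fragments) in Rcor2cko.

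**Figure D1:**
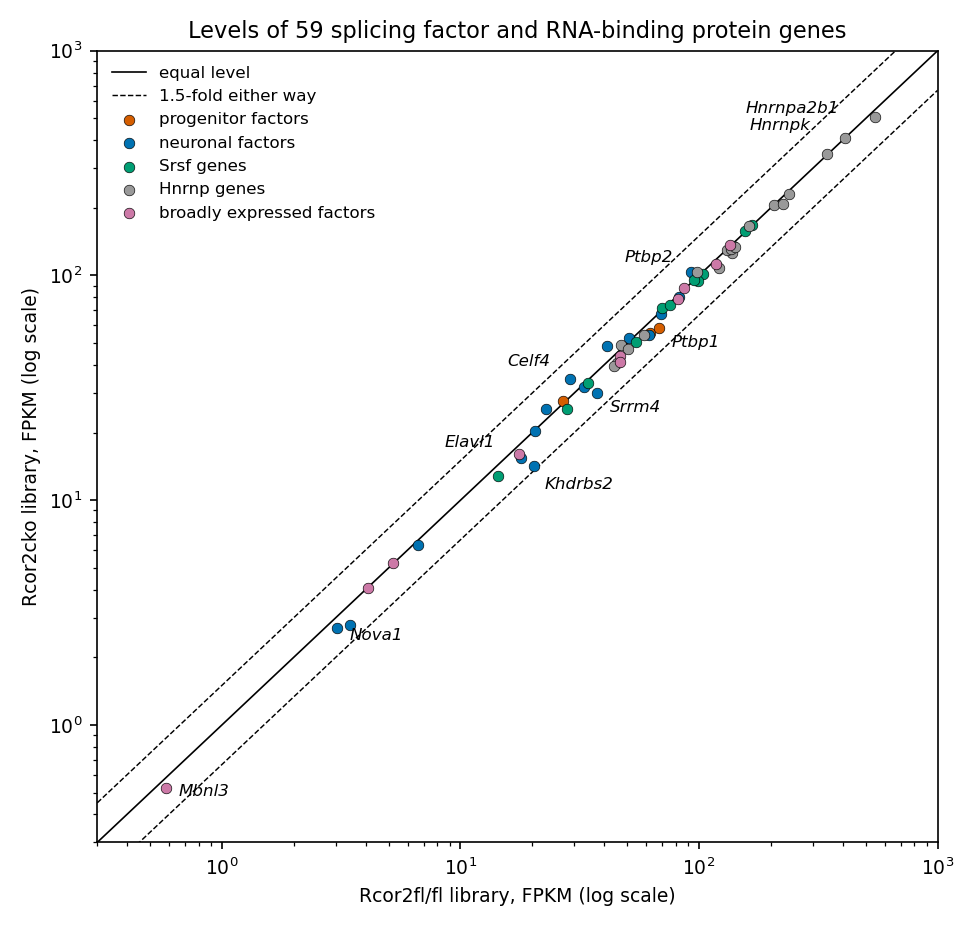
Level of each of the 59 genes in the control library (x axis, FPKM, log scale) and the Rcor2cko library (y axis, FPKM, log scale), 1 library per genotype, coloured by role. Every point lies between the dashed lines of a 1.5-fold difference, from Mbnl3 at 0.582 and 0.524 FPKM to Hnrnpa2b1 at 545 and 505 FPKM.

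No splicing factor gene differed more than 1.5-fold between the libraries in either direction. Over all 11777 genes compared, 3.79% were higher in Rcor2cko by more than 1.5-fold and 1.76% lower by that much. Genes at these levels differ less often in general, since 1.87% of the 8539 genes whose mean reached 5 FPKM were past 1.5-fold either way, so that a count of 0 among 58 is near the background. The log2 ratios of the 58 genes ran from -0.53 to 0.28 with a median of -0.04, beside -0.03 over all genes and -0.04 over genes with a mean of at least 5 FPKM. Their middle 50% lay between -0.13 and 0.01, beside -0.15 and 0.09 over all genes. A difference of 10% or less was found for 41 of the 58 genes, or 70.7%, against 65.1% of genes with a mean of at least 5 FPKM. The 95% FPKM intervals given with the values overlapped for all 58 genes, while those of 3.47% of all genes compared were separate.

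The balance of small differences depended on the scaling. As deposited, 42 of the 58 genes, or 72.4%, were lower in Rcor2cko, against 57.6% of all genes compared and 60.8% of genes with a mean of at least 5 FPKM. When the median ratio of expressed genes was set to 1, a shift of 0.04 on the log2 scale, 34 of the 58 were lower, or 58.6%, against 49.4% of all genes. With the upper quartiles set equal, a shift of 0.06, 25 of the 58 were lower, or 43.1%, as were 43.1% of all genes. Counting error could be given for 31 of the 58 genes from a single transcript each. Their counting intervals lay below 0 for 14 genes, or 45.2%, and above 0 for 2, Ptbp2 and Hnrnpr. Over the 8460 such genes of the whole transcriptome 23.2% lay below 0 and 14.0% above. Of such genes with a mean of at least 5 FPKM, 27.3% lay below 0 and 12.7% above. The counting intervals of splicing factors were narrower, with a median half-width of 0.07 against 0.17. That half-width was 0.13 over genes with a mean of at least 5 FPKM. With median scaling 12 of the 31 lay below 0 and 6, or 19.4%, above, against 17.0% and 18.2% of all such genes. With the upper quartiles set equal the balance turned, with 6 of the 31 below and 9 above, against 13.2% and 22.0% of all such genes. Of such genes with a mean of at least 5 FPKM, 19.6% lay below and 17.6% above with median scaling. With the upper quartiles set equal these shares were 14.7% and 22.3%. In whole tissue, fewer cells of a type and less RNA per cell cannot be told apart.

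**Figure D2:**
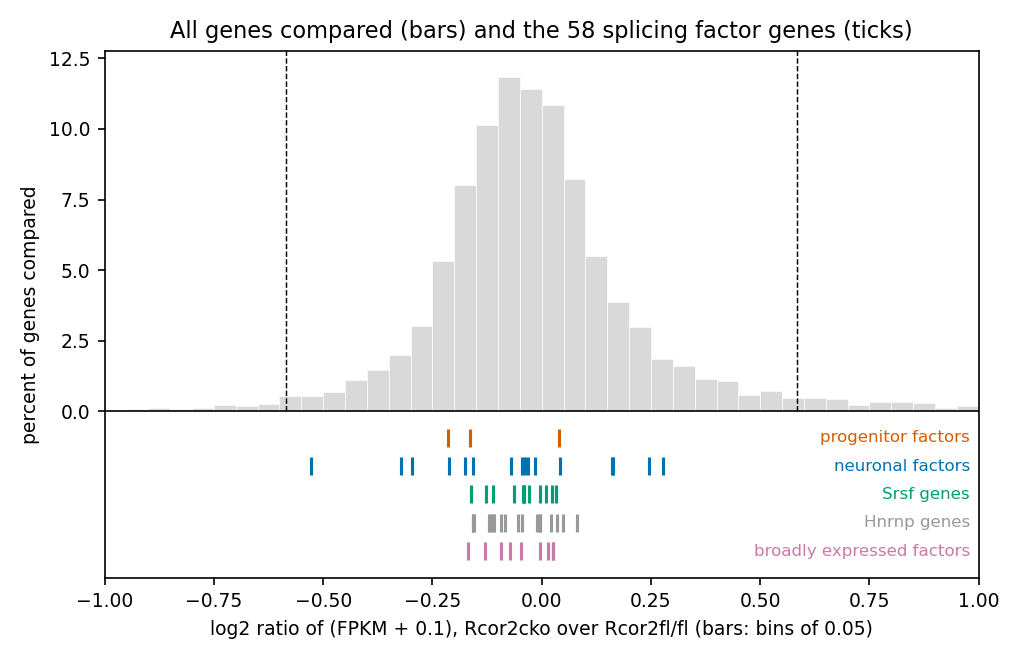
Share of the 11777 genes compared (y axis, percent) by its Rcor2cko to control log2 ratio of (FPKM + 0.1), in bins of 0.05, with the 58 splicing factor genes as ticks below by role. Dashed lines mark 1.5-fold, and bins beyond 1 on the log2 scale are not drawn. The ticks of Srsf, Hnrnp and broadly expressed genes stay between -0.17 and 0.08, while those of the neuronal factors spread from -0.53 to 0.28.

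The 3 progenitor factors were Ptbp1, Msi1 and Msi2, with a median log2 ratio of -0.16. Ptbp1 (chr10:79317172-79327516, mm9), the repressor of neuronal exons, measured 67.7 FPKM in the control library and 58.3 FPKM in Rcor2cko, a log2 ratio of -0.21 with a counting interval from -0.28 to -0.15 that takes its 2 transcripts to be mixed alike in both libraries. Msi1 (chr5:115879608-115905707), a Musashi protein that controls translation in neural stem cells, measured 62.3 and 55.6 FPKM, and the log2 ratio was -0.16 with a counting interval from -0.26 to -0.07. Its paralogue Msi2 (chr11:88152884-88579827) measured 26.8 and 27.6 FPKM, with a ratio of 0.04 and a counting interval from -0.03 to 0.10. Thus Msi1, and Ptbp1 with its transcripts taken as mixed alike, were lower in Rcor2cko by more than counting error under each scaling. As deposited, 27.3% of single-transcript genes with a mean of at least 5 FPKM also lay below 0. That share was 19.6% with median scaling and 14.7% with the upper quartiles set equal. The FPKM intervals given with the values overlapped for both genes, such as 52.5 to 82.9 and 46.3 to 70.4 FPKM for Ptbp1. The counting interval of Msi2 held 0 as deposited and lay above 0 with the median ratio of expressed genes set to 1.

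Control tissue held both RefSeq forms of Ptbp1, which differ by a coding exon of 78 nt, or 26 codons, in the linker between RNA recognition motifs of the protein. The form without the exon was at 42.9 FPKM (95% FPKM interval 30.8 to 54.99) and the form with it at 24.8 FPKM (15.6 to 33.9), or 63.4% and 36.6% of the gene. The exon, at chr10:79322862-79322939 on the plus strand of mm9, was matched to the length difference of the 2 transcripts in GENCODE vM1 and is shown because its length is the whole difference between the forms:
Ptbp1 alternative exon: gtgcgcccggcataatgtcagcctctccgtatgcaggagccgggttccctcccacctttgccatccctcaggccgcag
Transcript values were given for the control alone, so the use of this exon in Rcor2cko was not analysed here.

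The 16 neuronal factors spread most of all roles, with log2 ratios from -0.53 to 0.28, an SD over genes of 0.22 and a median of -0.04. The SD was 0.06 over the Srsf genes and 0.08 over the Hnrnp genes. It was 0.45 over all genes compared and 0.36 over genes with a mean of at least 5 FPKM, so the neuronal SD was below both. The quartiles of the 16 log2 ratios were -0.19 and 0.07, beside -0.15 and 0.09 over all genes compared. Counting intervals of single-transcript genes were available for 11 of the 16 neuronal factors, with a median half-width of 0.07, while the half-widths from the FPKM bounds were 0.25 to 0.31 for Elavl4, Rbfox1 and Celf4. Of the 16 genes, 5 were higher and 11 lower in Rcor2cko, and 6 lay within 10% of equal. The share lower was 68.75%, against 60.8% of genes with a mean of at least 5 FPKM. The share within 10% was 37.5%, against 65.1% of such genes. With the upper quartiles set equal, 9 were higher and 7 lower, or 43.75% lower, against 43.8% of such genes. The summed level of the 16 neuronal factors was 591 FPKM in both libraries. The neuronal median exceeded the progenitor median by 0.12, and the 3 progenitor values fell inside the range of the neuronal ones.

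Celf4, Elavl4, Rbfox1 and Ptbp2 had the highest log2 ratios of the neuronal factors, 0.16 or more. The upper quartile of the log2 ratios was 0.07 over the neuronal factors and 0.09 over all genes compared. Ptbp2 (chr3:119421660-119486306), the neuronal paralogue of Ptbp1, had the highest level of the neuronal factors, with 92.5 FPKM in the control and 104 FPKM in Rcor2cko. Its log2 ratio was 0.16 with a counting interval from 0.11 to 0.21, from 5526 and 8343 fragments. Celf4, which binds mRNAs of synaptic proteins, measured 28.7 and 34.8 FPKM, a ratio of 0.28. Elavl4 (chr4:109876327-110024514), or HuD, a stabilizer of neuronal mRNAs, measured 41.0 and 48.6 FPKM, a ratio of 0.25. Rbfox1 (chr16:6809315-7412572), which regulates exons of synaptic genes, measured 22.8 and 25.5 FPKM, a ratio of 0.16. The last 3 genes have several transcripts, and their 95% FPKM intervals, such as 35.8 to 46.1 and 42.7 to 54.4 FPKM for Elavl4, overlapped between the libraries.

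At the other end, Khdrbs2 (chr1:32229651-32714583), or SLM1, which regulates neurexin splicing, had the largest difference of all 58 genes. It measured 20.4 FPKM (448 fragments) in the control library and 14.1 FPKM (417 fragments) in Rcor2cko, a 1.44-fold lower level. Its log2 ratio was -0.53 with a counting interval from -0.73 to -0.33, which includes a 1.5-fold lower level. Srrm4 (chr5:116889281-117041826), the activator of neuronal microexons, measured 37.4 and 29.9 FPKM, with a log2 ratio of -0.32 and a counting interval from -0.38 to -0.27. Nova2 (chr7:19510698-19551031), a neuronal regulator that binds YCAY motifs, measured 17.9 and 15.4 FPKM, with a ratio of -0.21 and a counting interval from -0.29 to -0.14. Elavl2, or HuB, measured 61.6 and 54.5 FPKM, a ratio of -0.18, with overlapping 95% FPKM intervals of 53.3 to 69.9 and 47.4 to 61.6. Khdrbs2, Srrm4 and Nova2 were the neuronal factors whose counting intervals lay below 0, under each scaling tried. They are 3 of the 11 single-transcript neuronal factors, or 27.3%. As deposited, 27.3% of single-transcript genes with a mean of at least 5 FPKM also lay below 0, so the count is at the background. With the upper quartiles set equal the shares were 27.3% and 14.7%.

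Celf6 and Nova1 were the least abundant neuronal factors, and their lower values were within counting error. Celf6 measured 3.43 FPKM in the control library and 2.77 FPKM in Rcor2cko, with a counting interval from -0.62 to 0.01. Nova1 measured 3.03 and 2.70 FPKM, with a counting interval from -0.36 to 0.03. The interval also held 0 for Srrm3, the paralogue of Srrm4, at 6.62 and 6.30 FPKM, and for Celf5 at 33.1 and 32.0 FPKM. Celf3 stood at 69.3 and 67.5 FPKM, Elavl3 (HuC) at 82.4 and 80.6 FPKM, and Khdrbs3 (SLM2) at 51.0 and 52.5 FPKM, each with a counting interval that held 0. Rbfox3, whose protein is the neuronal nuclear antigen NeuN, measured 20.5 and 20.3 FPKM. The signs of Celf3, Celf5, Elavl3 and Rbfox3 turned under at least 1 other scaling, so no direction is given for them.

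**Figure D3:**
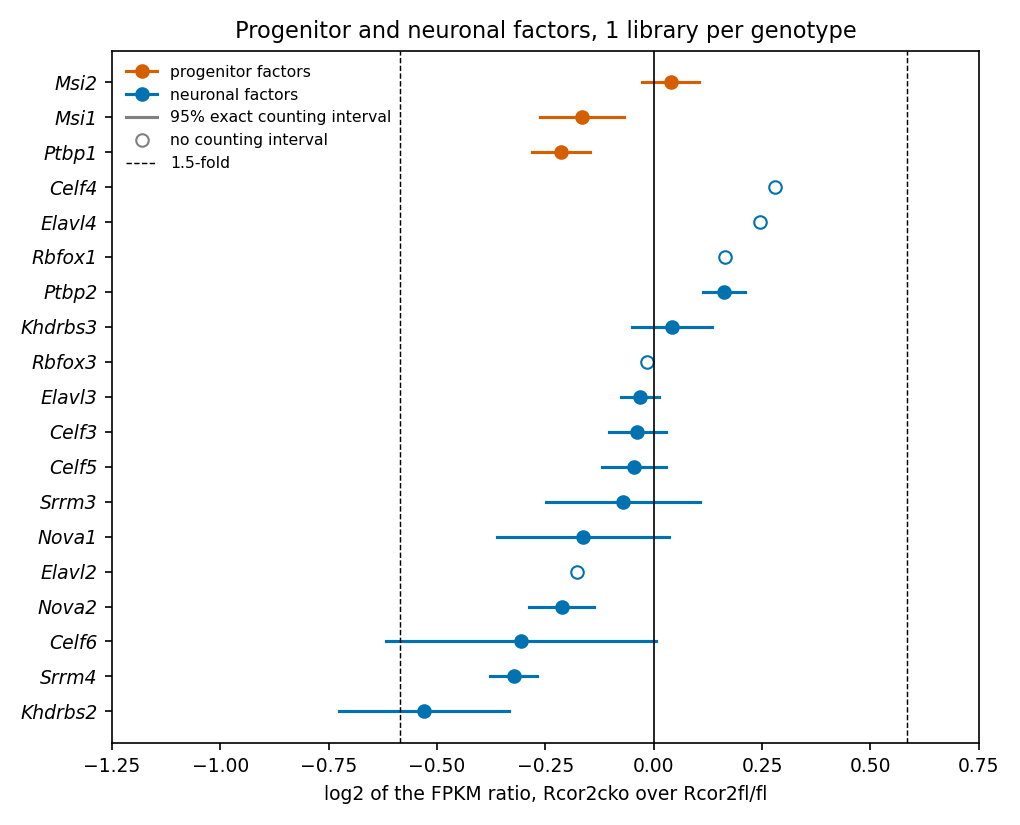
Rcor2cko to control log2 ratio of FPKM (x axis) of the 3 progenitor and 16 neuronal factors (y axis), 1 library per genotype. Lines are 95% exact counting intervals, open circles are genes for which fragments were not recovered, and dashed lines mark 1.5-fold. Khdrbs2 at -0.53 and Srrm4 at -0.32 lie lowest and Celf4 at 0.28 highest, and every point is inside 1.5-fold.

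The level of a factor relative to its paralogue differed between the libraries in some families. The ratio of the Ptbp2 level to the Ptbp1 level was 1.37 in the control library and 1.77 in Rcor2cko, a log2 difference of 0.38. Its counting interval, which takes the Ptbp1 transcripts to be mixed alike in both libraries, ran from 0.29 to 0.46. The interval from the 95% FPKM bounds, which also carry the error of assigning reads to transcripts, ran from -0.14 to 0.89. Elavl4 relative to Elavl2 was at 0.665 and 0.891, a log2 difference of 0.42 with an interval from the FPKM bounds of 0.05 to 0.79. Khdrbs2 relative to Khdrbs3 was at 0.4001 and 0.269, a difference of -0.57 with an interval from the FPKM bounds of -1.06 to -0.08. Msi1 relative to Msi2 was at 2.32 and 2.01, and the log2 difference of -0.20 had a counting interval from -0.32 to -0.09. Srrm4 relative to Srrm3 was at 5.65 and 4.74, a difference of -0.25 with a counting interval from -0.44 to -0.07. Elavl3 relative to the broadly expressed Elavl1 was at 4.67 and 4.999, a difference of 0.10 with a counting interval from 0.0012 to 0.20. For these 3 pairs the wider intervals from the FPKM bounds held 0, and for Nova2 relative to Nova1, at 5.90 and 5.70, both kinds of interval held 0. These pairs were picked from 12 computed, and all but Ptbp2 and Ptbp1 were chosen after their values were seen.

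Markers of ventral interneurons, choroid plexus and microglia were higher in Rcor2cko, and their part in the values of the splicing factors was not tested. The 8 radial glia markers summed to 873 FPKM in the control and 1021 FPKM in Rcor2cko, with a median log2 ratio of -0.08, and Fabp7 made up 372 and 539 FPKM of these sums. Of the 8 neuron markers, 7 were found, and they summed to 1533 and 1472 FPKM with a median of -0.04, so the dissected tissue held neuronal RNA in both libraries. The 5 intermediate progenitor markers summed to 239.9 and 230.0 FPKM. No gene of these 3 lists was past 1.5-fold. All 8 markers of ventral interneurons were higher in Rcor2cko, 6 of them past 1.5-fold, and their sum was 42.5 and 82.8 FPKM, with Dlx1, Dlx2, Dlx5, Dlx6, Gad1 and Gad2 past the limit. The 6 choroid plexus markers summed to 0.897 and 61.4 FPKM, of which Ttr, the transthyretin gene, was listed at 0 in the control and at 57.8 FPKM in Rcor2cko, and Aqp1 was also past 1.5-fold, while 2 of the 6 were listed at 0 in the control and 4 of the 6 stayed under 1 FPKM in both libraries. All 5 microglia markers were higher in Rcor2cko and summed to 12.7 and 17.7 FPKM, with Csf1r and C1qa past 1.5-fold. The 5 endothelial markers summed to 27.9 and 29.3 FPKM and the 5 erythroid markers to 5.98 and 5.43 FPKM, with no gene past 1.5-fold.

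The 12 Srsf genes, which encode SR proteins, had the smallest SD over genes, 0.06, close to 0.07 for the broadly expressed factors. Their log2 ratios lay between -0.16 and 0.03 with a median of -0.04. In Rcor2cko 3 were higher and 9 lower, or 75% lower, against 60.8% of genes with a mean of at least 5 FPKM. Within 10% of equal were 11, or 91.7%, against 65.1% of such genes. With the upper quartiles set equal, 9 were higher and 3 lower, or 25% lower, against 43.8% of such genes. Srsf5 had the highest level of the group, with 167 FPKM in the control and 168 FPKM in Rcor2cko. Srsf10, a splicing repressor when dephosphorylated, had the most positive ratio, 0.03, with levels of 70.2 and 71.8 FPKM. The lowest ratio, -0.16 with a counting interval from -0.28 to -0.04, was that of Srsf15 at 14.4 and 12.8 FPKM. The symbols Srsf15 and Srsf12 stand in the files for the genes now called Scaf4 and Srek1, and without them the median of the other 10 genes was -0.03, with 3 higher and 7 lower. Srsf1, the founding member of the family, measured 104 and 101 FPKM, and Srsf2 measured 139 and 135 FPKM.

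SR protein genes limit their own output through poison exons, whose inclusion brings a premature stop codon that sends the transcript to nonsense-mediated decay. The control library listed non-coding RefSeq transcripts for 3 of the Srsf genes, and an exon with a premature stop was located for Srsf3 alone. These transcripts reached 33.0 FPKM (95% FPKM interval 19.0 to 47.0) of Srsf3, 26.9 FPKM (21.0 to 32.8) of Srsf7 and 3.87 FPKM (1.88 to 5.86) of Srsf9, or 21.2%, 28.2% and 11.3% of the FPKM of each gene. In Srsf3 (chr17:29169618-29180311, plus strand) the non-coding transcript of 3041 nt differs from the coding one of 2585 nt by an exon of 456 nt at chr17:29176399-29176854. Its first 34 bases, chr17:29176399-29176432, are shown up to the stop codon, in capitals, that ends the reading frame of the preceding exon:
Srsf3 poison exon, start: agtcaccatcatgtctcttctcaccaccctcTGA
In total the Srsf3 gene measured 156 FPKM in the control and 159 FPKM in Rcor2cko, and the share of its poison exon in Rcor2cko was not analysed here.

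The 18 Hnrnp genes carried the largest amount of RNA, 1.01% of all FPKM in the control library and 0.990% in Rcor2cko, and 12 of them were over 100 FPKM in both. Their log2 ratios lay between -0.16 and 0.08 with a median of -0.07. Of the 18, 14 were lower and 4 higher, or 77.8% lower, against 60.8% of genes with a mean of at least 5 FPKM. Within 10% of equal were 15, or 83.3%, against 65.1% of such genes. With the upper quartiles set equal, 9 were lower and 9 higher, while 43.8% of such genes were lower. Hnrnpa2b1 (chr6:51410433-51419893), which binds RNA for splicing and transport, had the highest level of all 59 genes, with 545 FPKM (95% FPKM interval 389.5 to 700.4) in the control and 505 FPKM (345 to 665) in Rcor2cko. Hnrnpk, a binder of C-rich RNA and DNA, followed with 411 and 409.6 FPKM. Hnrnpl (chr7:29593560-29607285), which binds CA repeats, had the lowest ratio, -0.16 with a counting interval from -0.21 to -0.10, with levels of 121 and 108 FPKM, and Hnrnpd had the same ratio at 2 decimals. Hnrnpr (chr4:135866857-135896596), known from axonal mRNA transport, had the highest, 0.08 with a counting interval from 0.03 to 0.14, with levels of 97.9 and 104 FPKM. Hnrnpa1 measured 206 FPKM in both libraries. Hnrnpa1 and Hnrnpa3 have many processed pseudogenes, so their levels are uncertain. X-linked Hnrnph2 measured 47.3 and 48.9 FPKM, with a counting interval that held 0.

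Hnrnpd, or AUF1, which binds AU-rich elements and promotes mRNA decay, was the member whose 4 RefSeq transcripts have the lengths of the 4 combinations of 2 coding exons. The form with both exons (6810 nt) was at 23.5 FPKM in the control library, the form without the 147 nt exon (6663 nt) at 11.7 FPKM, the form without the 57 nt exon (6753 nt) at 6.95 FPKM, and the form without either (6606 nt) at 3.11 FPKM. Thus the form with both exons held 51.9% of the gene, and their 95% FPKM intervals separated it from each of the others. The exons, of 49 and 19 codons, lie on the minus strand at chr5:100392750-100392896 and chr5:100405553-100405609, and are shown 5′ to 3′ in transcript sense as the parts that tell the forms apart:
Hnrnpd exon of 147 nt: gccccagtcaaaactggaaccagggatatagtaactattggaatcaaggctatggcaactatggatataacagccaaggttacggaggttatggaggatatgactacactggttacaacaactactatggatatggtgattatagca
Hnrnpd exon of 57 nt: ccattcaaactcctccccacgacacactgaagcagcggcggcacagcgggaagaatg
The gene as a whole measured 45.3 FPKM in the control library and 40.6 FPKM in Rcor2cko, with a log2 ratio of -0.16 and a counting interval from -0.21 to -0.11 for an equal mix of forms.

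The 10 broadly expressed factors of the Celf, Elavl, Khdrbs, Mbnl, Rbfox and Srrm families had a median log2 ratio of -0.05 over the 9 compared. Of these, 3 were higher and 6 lower, or 5 higher and 4 lower with the upper quartiles set equal. The share lower was 66.7% as deposited, against 60.8% of genes with a mean of at least 5 FPKM. With the upper quartiles set equal it was 44.4%, against 43.8% of such genes. Within 10% of equal were 8 of the 9, or 88.9%, against 65.1% of such genes. Khdrbs1 (chr4:129380408-129419547), or Sam68, which links signalling to splicing, was the most abundant, with 134 FPKM in the control and 137 FPKM in Rcor2cko. Srrm1 (chr4:134876399-134909236), a co-activator of SR proteins, had the lowest ratio, -0.17 with a counting interval from -0.24 to -0.10, with levels of 46.4 and 41.3 FPKM. Celf2 (chr2:6460751-7002348) had the most positive ratio, 0.02, with levels of 86.6 and 88.1 FPKM, a ratio that did not differ from that of Khdrbs1 at 2 decimals. Elavl1, or HuR, the broadly expressed relative of Elavl4, measured 17.6 and 16.1 FPKM, with a ratio of -0.13. Rbfox2 measured 81.6 and 79.0 FPKM, above Rbfox1 and Rbfox3 in both libraries.

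The muscleblind genes, whose proteins drive the shift from fetal to adult splicing, were near the lower end of the 59 genes. Mbnl1 measured 4.10 FPKM in the control library and 4.09 FPKM in Rcor2cko, and Mbnl2 5.23 and 5.28 FPKM. The control transcripts of Mbnl2 were mostly of the form with a coding exon of 54 nt (18 codons), at 4.85 FPKM (95% FPKM interval 3.89 to 5.82), against 0.373 FPKM (0.0627 to 0.684) for the form without it, or 92.9% and 7.14% of the gene. The exon, chr14:120794934-120794987 on the plus strand, is shown because most control transcripts of the gene contain it:
Mbnl2 alternative exon: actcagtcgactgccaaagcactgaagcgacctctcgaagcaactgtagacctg

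Several transcripts were listed for 27 of the 59 genes, in 89 rows, and 32 genes had a single transcript. In the Rcor2fl/fl library 1 transcript held more than 75% of the gene for 10 of the 27, and no transcript reached 50% for 5, namely Celf2, Celf4, Hnrnpa3, Hnrnpc and Srsf7. Alternative start sites divided several genes. For Elavl2 the 3 start sites held 71.5%, 27.9% and 0.599% of the gene, and for Elavl4 60.0%, 27.8% and 12.3%. The 2 start sites of Rbfox1 held 63.9% and 36.1%, and those of the broadly expressed Rbfox2 87.0% and 13.0%. For Srsf11 the 3 start sites held 52.6%, 27.6% and 19.7%, and for Celf2 the 3 above 0 held 58.6%, 31.5% and 9.93%. Such shares are estimates from short reads for 1 library, and 10 of the transcripts above 0 had a lower FPKM bound of 0.

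**Figure D4:**
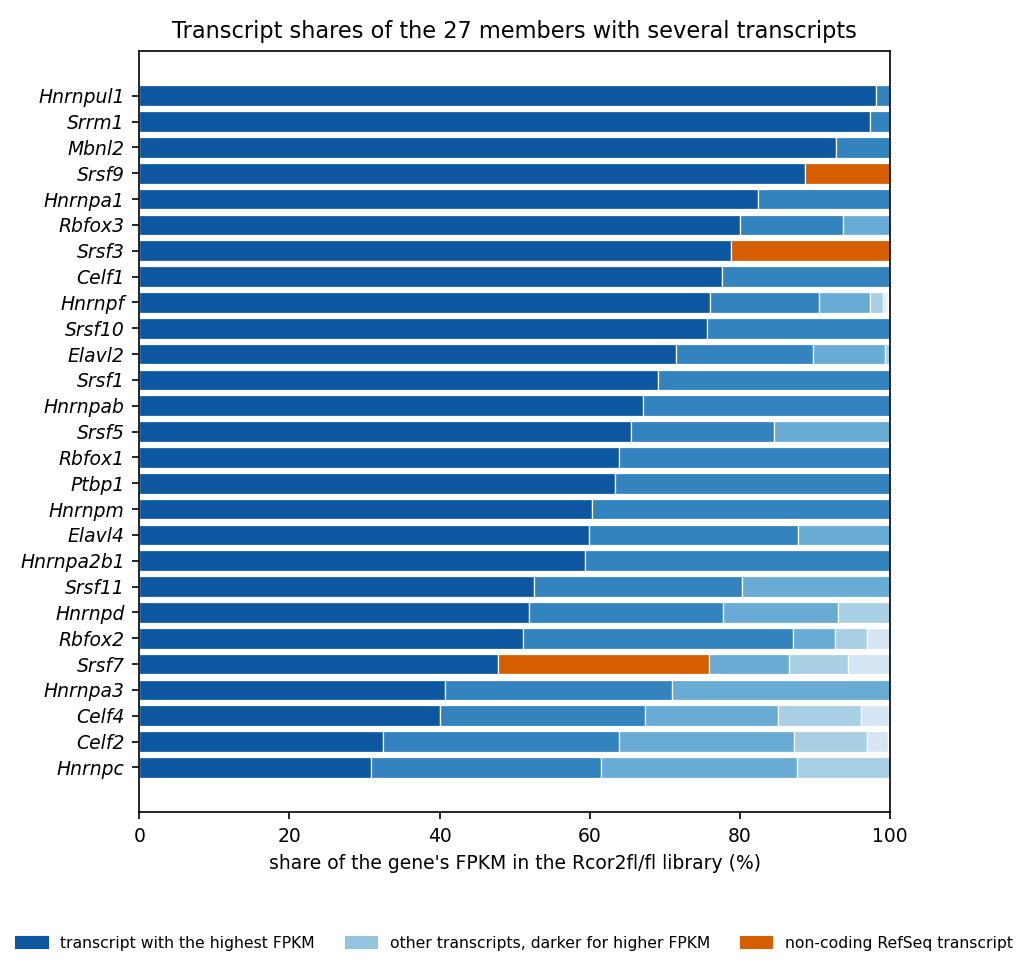
Share of each gene's FPKM in the control library (x axis, percent) held by its RefSeq transcripts, for the 27 genes with several transcripts (y axis), with non-coding transcripts in orange. The top transcript ranges from 98.1% for Hnrnpul1 to 30.8% for Hnrnpc, and non-coding transcripts appear for Srsf3, Srsf7 and Srsf9.

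Other genes of the splicing machinery also differed little. Of 31 other splicing regulators, 29 were compared, with 5 higher and 24 lower in Rcor2cko and a median log2 ratio of -0.06. The only one past 1.5-fold was Khsrp, a KH-domain protein of mRNA decay and splicing, with 35.2 FPKM (95% FPKM interval 30.9 to 39.5) in the control library and 21.5 FPKM (18.7 to 24.4) in Rcor2cko, a ratio of -0.71. Of the 36 core spliceosome genes, which encode parts of the small nuclear ribonucleoproteins and their partners, 8 were higher and 28 lower, with a median of -0.09 and no gene past 1.5-fold. Of the 7 kinases that phosphorylate SR proteins, 6 were compared, 3 were higher and 3 lower, and the median was -0.01. The share of lower genes was 82.8% for the other regulators and 77.8% for the core spliceosome. It was 57.6% over all genes compared, with a median of -0.03, and 60.8% over genes with a mean of at least 5 FPKM. These counts are for the values as deposited, and the lists were not counted under other scalings.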

How the data were processed

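RNA of the E13.5 VZ–SVZ was sequenced in 1 library per genotype, made with RNeasy columns and a stranded mRNA kit. The authors mapped the reads and deposited FPKM values with 95% FPKM bounds, per RefSeq transcript for Rcor2fl/fl (27641 rows) and per gene for Rcor2cko (21896 rows). The submitters' processing notes name TopHat 1.3.3, Cufflinks 1.2.0 and mm9. Transcript lengths, another deposited value given in nt, were used as listed.

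Transcript rows were summed per gene, and bounds were combined by root sum of squares. A gene was compared if either library reached 1 FPKM, with a pseudocount of 0.1. A difference on that scale understates the change of low genes. Fragments were recovered from FPKM steps where a gene had a single transcript of 1000 nt or more (14350 genes). Among recovered values no larger than 100, 99.3% of 4019 in Rcor2fl/fl and 99.4% of 3948 in Rcor2cko fell within 0.1 of a whole number. For genes whose transcripts have effective lengths within 5%, the same mix was assumed. Summed transcripts against a gene value, and the depth of the libraries, limit the precision. The steps were tested on simulated data.

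All progenitor and neuronal genes were named, and in each other group the gene with the highest mean, the largest rise and the largest fall. Genes past 1.5-fold in the lists of markers and other splicing genes were named too. The other genes, such as those with alternative exons, were chosen after their values were seen. The 59 genes, their roles and the lists were chosen with earlier results of these data known. Exons are from GENCODE vM1 (NCBIM37, mm9), where 57 of the 59 symbols were found, and 119 of 121 transcripts were matched to RefSeq. The alternatives were pseudocounts, filters, scalings, a 2-fold limit, separate intervals, recovered fragments and the highest transcript per gene. Python 3.11.15 with numpy 2.4.6, pandas 2.3.3, scipy 1.17.1 and matplotlib 3.10.9 was used.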

Additional observations from a re-analysis of the deposited data

How the results depend on the processing

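No paired analysis was possible because each genotype has 1 library. The counts of 0 genes past 1.5-fold, higher or lower, stayed at 0 under pseudocounts of 0.01 and 1, each filter, median, upper-quartile and total scaling, a 2-fold limit and separate 95% FPKM intervals. Taking the highest transcript in place of the sum lowers the Rcor2fl/fl values of genes with several transcripts and leaves the Rcor2cko values as they are. By that construction 13 genes were more than 1.5-fold higher, the median log2 ratio was 0.040 over all 58 genes, 0.039 for progenitor factors, 0.25 for Srsf genes, 0.065 for Hnrnp genes and 0.025 for broadly expressed factors, neuronal minus progenitor was -0.073 and the Ptbp2 to Ptbp1 ratio differed by -0.28. Under all other settings 24 of the 28 genes followed kept their sign, with Khdrbs2 between -0.53 and -0.46 and Ptbp2 between 0.16 and 0.23. The median of all 58 genes was 0.02 with upper-quartile scaling. Their high levels give the splicing factors narrow counting intervals, but with 1 library per genotype their differences cannot be told from variation between embryos or dissections.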

Other observations

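Genes of these families that the deposited annotation lists under older symbols were not among the 59, and their values were looked at after the others. Rod1, now Ptbp3, the third polypyrimidine tract-binding protein, measured 4.75 FPKM (95% FPKM interval 3.90 to 5.60) in the control library and 6.60 FPKM (5.56 to 7.65) in Rcor2cko, a log2 ratio of 0.47. Its FPKM intervals overlapped, and its counting interval, which takes its 2 transcripts to be mixed alike, ran from 0.33 to 0.62. Hnrpdl, now Hnrnpdl, measured 142 and 154 FPKM, a ratio of 0.11. Hnrpll, now Hnrnpll, measured 39.1 and 37.2 FPKM, a ratio of -0.07. Sfrs18, whose current symbol Pnisr belongs to none of these families, measured 65.0 and 65.1 FPKM.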
